A study of Mus musculus with 6 samples.

Results

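The genes described here are the core splicing factors of 3 families: SR proteins, heterogeneous nuclear ribonucleoproteins (hnRNPs) and the SF3 complexes. They were chosen by name, as every row of the library files named Srsf with a number, Hnrnp with any ending, or Sf3a or Sf3b with 1 digit. This gave 39 genes of 39171 identifiers, of which 11 were SR genes, 20 hnRNP genes and 8 SF3 genes, and the rule uses names alone. RNA was sequenced from CD4+ T cells that were isolated with a magnetic kit from the spleens of C57BL/6 mice described as premenopausal. Mice of the AngII group were 10 weeks old when they began 14 days of angiotensin II, a peptide hormone that raises blood pressure, given by osmotic minipump at 800 ng/kg/min, and the Control group was untreated over the same time. The design gives 3 mice per group and there are 3 libraries per group, all from the same strain and age. The labels do not say whether each library is 1 mouse, and they mention no sham pump. Levels are FPKM, fragment counts scaled to transcript length and library size, as the authors deposited them.

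SR proteins bind exonic enhancers through RNA recognition motifs and recruit the splicing machinery through domains rich in serine and arginine. hnRNPs coat nascent transcripts and often act against SR proteins, by masking splice sites or looping out exons. SF3A and SF3B are the protein complexes that hold the U2 particle at the branch point of the intron. Many SR and hnRNP genes limit their own level by splicing in an exon that sends the transcript to nonsense-mediated decay. In T cells these factors are known for the choice of exons in Ptprc (CD45) during activation, in which Hnrnpl and Hnrnpll act as repressors of variable exons.

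In AngII no member of the 3 families rose or fell past the threshold against Control, and no member differed by more than 0.25 on the log2(FPKM + 1) scale. That scale understates low genes, and the mean of Srsf12 was 1.40 times as high in AngII as in Control. The difference that stood out among the abundant members was Srsf3, at a log2 fold change of -0.17. Of the 39 members, 1 (Srsf3) had an unadjusted p under 0.05 in limma, against 1.76% of all genes. Srsf7, a close relative of Srsf3, had a log2 fold change of -0.16, which was -0.07 without AngII replicate 2. Srsf12 went the other way, but it is near the detection limit and passed the filter on mean FPKM through its AngII libraries. Wide differences between libraries of the same group were seen in Srsf5, Hnrnph1 and Hnrnpd.

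The sequences before the transcription starts of 4 members are shown because these genes carry the patterns described here: Srsf3 and Srsf7, which had lower values in every AngII library than in any Control library, and Srsf5 and Hnrnpd, whose coefficients of variation within groups were the highest after Hnrnph1. Each is 250 bases long, ends just before the RefSeq start, is read 5′ to 3′ on the strand of the gene, and comes from the GRCm38.p6 build (Srsf3 chr17:29032410-29032659, plus strand; Srsf7 chr17:80207306-80207555, minus strand; Srsf5 chr12:80945249-80945498, plus strand; Hnrnpd chr5:99978939-99979188, minus strand). In the first pair the capitals mark TATAAA, its variant spelled TATATAA, and the box known as CCAAT. In the second pair they mark GGGCGG, the core of a GC box, and the Ets-type motif CCGGAAG. Each was searched on both strands.
Srsf3: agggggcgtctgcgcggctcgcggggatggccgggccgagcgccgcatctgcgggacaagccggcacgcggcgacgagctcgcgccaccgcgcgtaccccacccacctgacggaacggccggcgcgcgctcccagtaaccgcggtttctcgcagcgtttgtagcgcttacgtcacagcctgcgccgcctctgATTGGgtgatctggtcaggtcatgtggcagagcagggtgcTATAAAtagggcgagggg
Srsf7: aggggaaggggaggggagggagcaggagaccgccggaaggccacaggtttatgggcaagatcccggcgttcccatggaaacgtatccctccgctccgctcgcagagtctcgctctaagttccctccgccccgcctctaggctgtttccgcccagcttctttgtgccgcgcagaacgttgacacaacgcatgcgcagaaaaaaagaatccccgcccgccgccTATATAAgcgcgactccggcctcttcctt
Srsf5: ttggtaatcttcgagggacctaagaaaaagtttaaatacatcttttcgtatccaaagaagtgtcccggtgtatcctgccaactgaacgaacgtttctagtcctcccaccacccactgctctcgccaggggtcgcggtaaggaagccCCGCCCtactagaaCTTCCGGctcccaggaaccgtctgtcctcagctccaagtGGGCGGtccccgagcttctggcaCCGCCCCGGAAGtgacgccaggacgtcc
Hnrnpd: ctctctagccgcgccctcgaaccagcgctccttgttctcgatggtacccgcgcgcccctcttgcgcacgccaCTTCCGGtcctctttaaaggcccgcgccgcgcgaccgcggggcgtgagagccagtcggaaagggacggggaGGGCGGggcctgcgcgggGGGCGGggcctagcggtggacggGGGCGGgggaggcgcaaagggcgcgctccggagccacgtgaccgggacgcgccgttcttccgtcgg

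In Srsf3 the letters TATAAA began 18 bases before the RefSeq start, and in Srsf7 the letters TATATAA began 29 bases before it. GENCODE places the start of Srsf3 earlier, at 29032628, so that this TATAAA lies inside the gene as GENCODE draws it. TATAAA or TATATAA was found in this window for 5 of the 36 members with a RefSeq promoter (Hnrnpm, Sf3b3, Srsf2, Srsf3 and Srsf7), against 15.9% of the 27025 genes in the table, or 13.8% of its 32851 promoters of the same length. Srsf3 also held CCAAT on the other strand. On either strand CCAAT was found for 18 of 36 members, against 37.5% of genes. Srsf5 had 3 matches to GGGCGG and 2 to CCGGAAG, and the last of each shared 1 base. Hnrnpd had 3 matches to GGGCGG and 1 to CCGGAAG, and Srsf7 held both as well, left in lower case here. GGGCGG stood in a promoter of 28 of the 36 members, against 35.4% of genes, and in 37 of their 49 promoters, against 32.7% of all promoters. For CCGGAAG these were 12 of the 36 members, against 7.83% of genes, and 16 of the 49 promoters, against 6.91% of all promoters. TGACGT was searched as well and is not marked. It was found for 7 of the 36 members, against 7.29% of genes, and in 8 of the 49 promoters, against 6.47% of all promoters. Srsf3 was among the 7, with the match left in lower case. Some genes have several promoters in the table, and such matches describe letters only.

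All 39 members passed the filter of a mean of at least 1 FPKM, and most were among the abundant genes of these cells. The median of their means was 83.7 FPKM, against 12.6 FPKM over all 11842 genes tested. hnRNP genes were the most abundant family with a median of 127 FPKM, SR genes had 73.8 FPKM and SF3 genes 52.4 FPKM. Levels of the SR genes spread widest, from Srsf5 with a mean of 399.5 FPKM over the 6 libraries to Srsf12 with 1.07 FPKM. Srsf12 passed the filter through the AngII libraries, since each Control library was below 1 FPKM. Members also took a similar share of each library: their summed FPKM was 0.775%, 0.803% and 0.668% of the total in AngII replicates 1 to 3, and 0.721%, 0.724% and 0.679% in Control replicates 1 to 3.

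**Figure D1:**
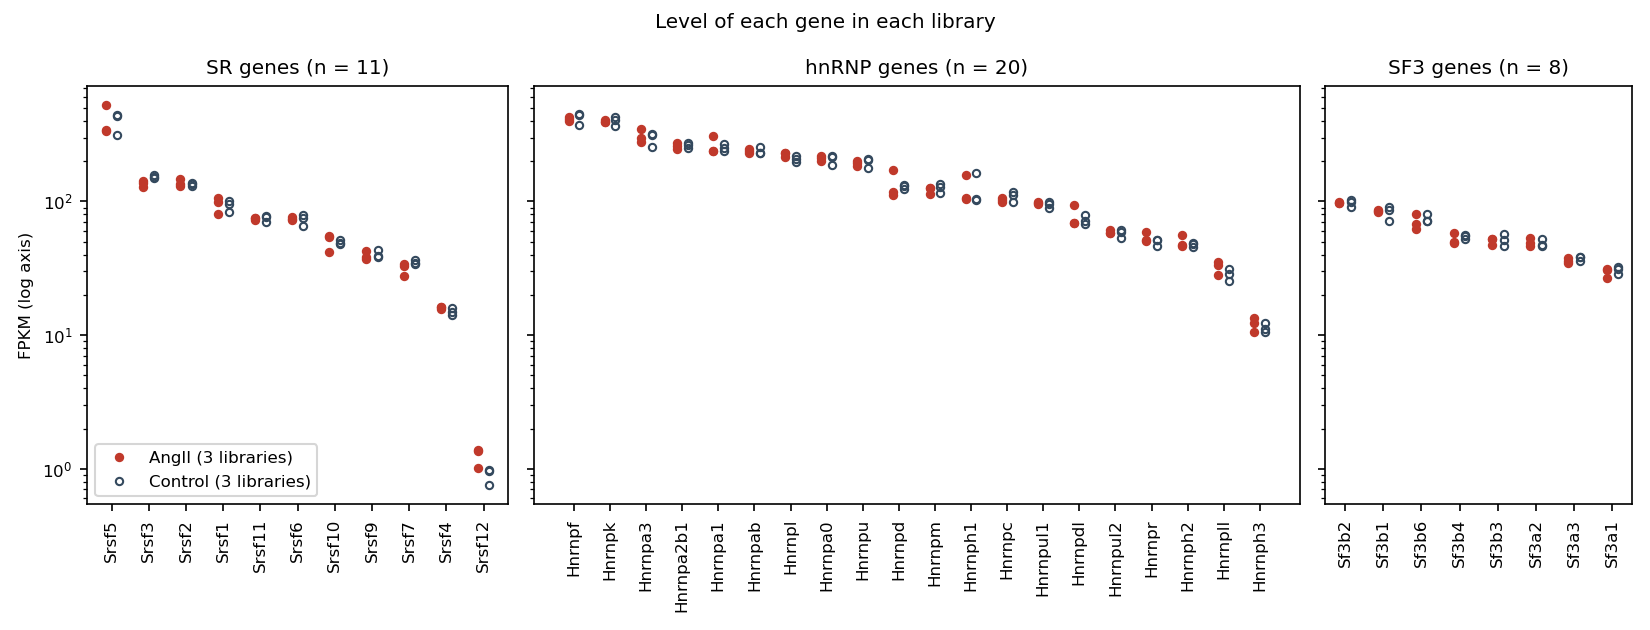
FPKM of each SR, hnRNP and SF3 gene in each library on a log axis, ordered by mean within the family (filled, 3 AngII libraries; open, 3 Control libraries). AngII and Control points overlap for nearly all genes, and the genes of highest mean are Hnrnpf at 418.7 FPKM, Srsf5 at 399.5 FPKM and Hnrnpk at 398.7 FPKM.

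The libraries as a whole had summed FPKM of 613674 to 717286, with 11438 to 11757 genes at 1 FPKM or more, and the read depth is unknown since the files hold no counts. Defining markers of CD4+ T cells were present: Cd4 was at 228.2 ± 12.5 FPKM in AngII and 228.6 ± 25.5 FPKM in Control, while of the 2 CD8 T cell markers Cd8a was at 0.873 ± 0.696 FPKM in AngII and 0.855 ± 0.194 FPKM in Control, and Cd8b1 at 10.4 ± 1.45 FPKM in AngII and 10.4 ± 0.343 FPKM in Control (SD, n = 3 each). RNA of other spleen cells was also present and unequal. The summed FPKM of 10 macrophage and monocyte markers was 1537 to 3061 in AngII libraries and 1247 to 2180 in Control libraries, that of 9 B cell markers 586.6 to 949 and 658 to 1161, and that of 10 neutrophil and granulocyte markers 30.9 to 97.6 and 10.7 to 56.1. Most of each B cell sum was Ighm. In such bulk samples fewer cells of a type and less RNA per cell cannot be told apart, and the part of other cells in the values below was not tested.

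Among 11842 genes tested with limma, 4 (0.0338%) passed an adjusted p of 0.05, and none of the 39 members was among them. The lowest adjusted p of any member was 0.9999, and 1 member, Srsf3, had an unadjusted p under 0.05, against 1.76% of all genes. The 95% interval of the log2 fold change lay within 0.5 of 0 for 36 of 39 members, and within 0.25 for 18. The intervals of Srsf5, Srsf12 and Hnrnph1 reached further than 0.5 from 0. The median reach of the interval to either side was 0.196 for members and 0.220 for 6703 genes averaging 10 FPKM or more. Groups did not overlap for 3 members, 2 lower and 1 higher in AngII, against 5.84% of all genes (3.48% lower and 2.36% higher). The member higher in AngII, Srsf12, passed the filter through its AngII libraries, so the filter favoured that direction. The authors' deposited table held 38 members by name (not Sf3b6), of which Hnrnpm and Hnrnpul1 each share a row with another gene, so that its p is not for the member alone. In the authors' deposited table all of them were tested and none was significant, against 0.251% of the rows tested, and their p ran from 0.2191 for Srsf3 to 0.9844 for Hnrnpab.

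**Figure D2:**
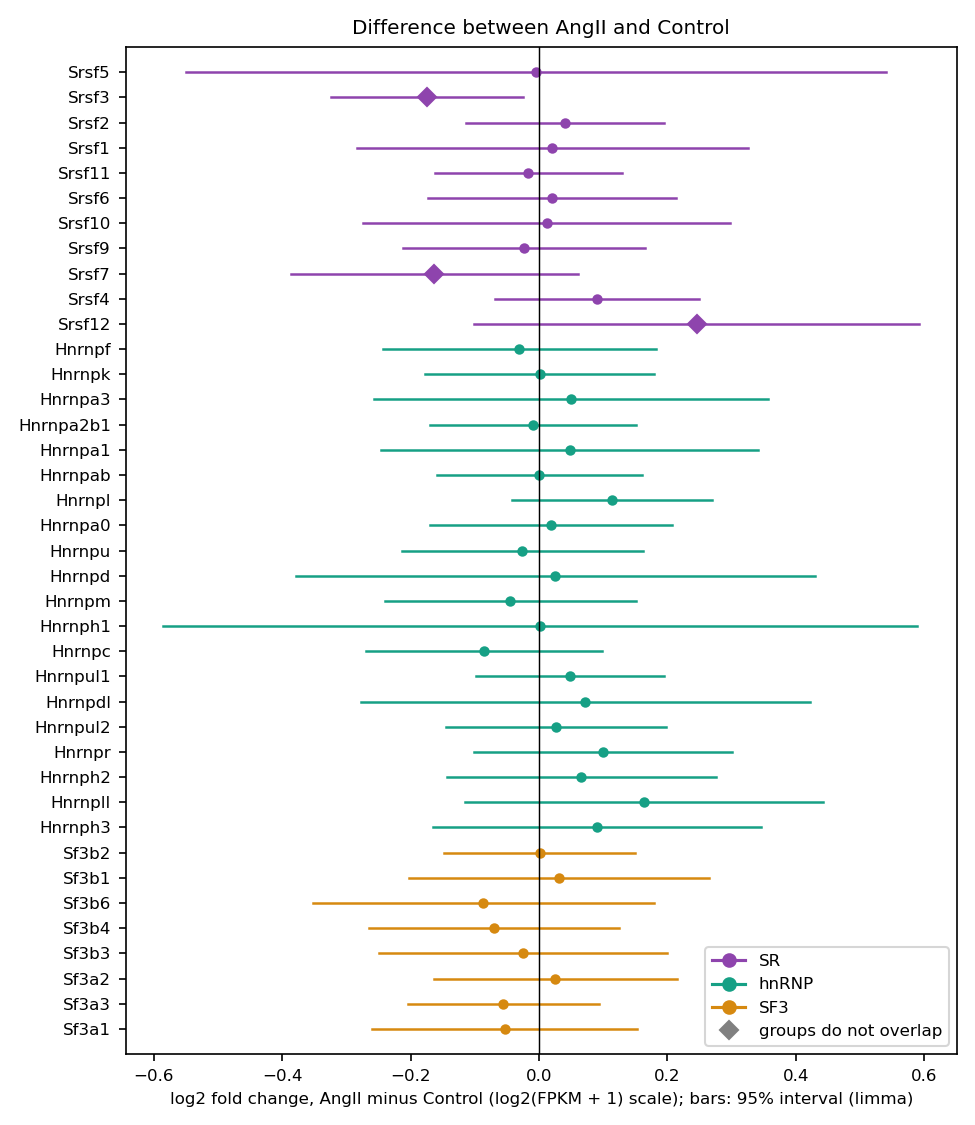
Log2 fold change of each gene on the log2(FPKM + 1) scale, AngII minus Control, with its 95% interval from limma (3 libraries per group), coloured by family; diamonds mark genes whose groups do not overlap. All 39 points lie within 0.25 of 0, and the interval of Srsf3, from -0.32 to -0.03, leaves out 0.

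Srsf3, the smallest SR protein, which couples splicing to mRNA export and polyadenylation, lies on chromosome 17 (ENSMUSG00000071172, 29032628 to 29043373, GENCODE M21 on GRCm38). Its level was 129, 143 and 138 FPKM in AngII replicates 1 to 3, against 151, 158 and 153 FPKM in Control replicates 1 to 3. Each AngII library was below each Control library. The means were 136.6 ± 7.43 FPKM in AngII and 154 ± 3.65 FPKM in Control (SD, n = 3 each), a log2 fold change of -0.17 with a standard error of 0.061 (limma adjusted p = 0.9999). It did not pass the threshold over all genes. In fits with 1 library left out the value ran from -0.21 to -0.13, and with libraries scaled to equal summed FPKM it was -0.11. Its unadjusted p under 0.05 was lost with equal summed FPKM and without any 1 of AngII replicates 1 and 3 or Control replicates 1, 2 and 3.

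Srsf7, an SR protein of the same single-motif type that also has a zinc knuckle, lies on the same chromosome (ENSMUSG00000024097, 80200080 to 80207307). It was at 34.0, 27.4 and 32.9 FPKM in AngII replicates 1 to 3, against 34.2, 36.4 and 34.9 FPKM in Control replicates 1 to 3. The groups were separate, with AngII replicate 1 just under Control replicate 1. The log2 fold change was -0.16 with a standard error of 0.091 and did not pass (limma adjusted p = 0.9999). Without AngII replicate 2, the lowest library, it was -0.07.

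Srsf12, a little-expressed relative of Srsf10 on chromosome 4 (ENSMUSG00000054679, 33208991 to 33233340), was at 1.38, 1.01 and 1.36 FPKM in AngII, against 0.751, 0.956 and 0.974 FPKM in Control. AngII replicate 2 stood just above the Control libraries and the other AngII libraries well above. Srsf12 passed the filter through its AngII libraries, so the filter favoured a higher AngII value. On the log2(FPKM + 1) scale, which understates changes of low genes, the log2 fold change was 0.25 (standard error 0.142, limma adjusted p = 0.9999), short of the threshold. With a pseudocount of 0.1 it was 0.44 and with 5 it was 0.08, also short of it.

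Srsf5, the most abundant SR gene, encodes a factor first described in rat liver as an early gene of regeneration. It lies on chromosome 12 (ENSMUSG00000021134, 80945504 to 80950507). Its level was 336.6, 526 and 340.0 FPKM in AngII replicates 1 to 3, against 445, 435 and 314 FPKM in Control replicates 1 to 3. High and low libraries stood in both groups, so that the means were nearly equal at 401 ± 109 and 398 ± 73.0 FPKM (SD, n = 3 each). The 95% interval of the log2 fold change was correspondingly wide, from -0.55 to 0.54.

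Of the other abundant SR genes, Srsf2, which binds both G-rich and C-rich enhancers, was at 131, 147 and 136 FPKM in AngII, against 136, 135 and 130.1 FPKM in Control. Srsf1, the founding SR protein and a regulator of 5′ splice site choice, was at 105, 80.4 and 99.5 FPKM in AngII, against 101, 95.8 and 83.6 FPKM in Control. Both genes overlapped between groups, and the lowest Srsf1 value was that of AngII replicate 2. Srsf10, a repressor when dephosphorylated after heat shock, was also lowest in that library, at 41.7 FPKM, against 48.1 to 55.0 FPKM in the other 5. Srsf4 was at 15.8, 16.2 and 16.2 FPKM in AngII, against 16.03, 14.98 and 14.1 FPKM in Control, with 2 AngII libraries above all Control libraries. Its log2 fold change was 0.09 (limma adjusted p = 0.9999), and 0.05 without Control replicate 3. Srsf6, Srsf9 and Srsf11 had log2 fold changes from -0.02 to 0.02, with groups that overlapped.

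The hnRNP genes were led by Hnrnpf, whose protein binds runs of G. It was at 411.9, 402.2 and 426.5 FPKM in AngII, against 451, 445 and 375.4 FPKM in Control. Hnrnpk, a poly-C binding protein, was at 409, 395 and 391.8 FPKM in AngII, against 427, 404 and 366 FPKM in Control. In both genes the Control libraries spread more widely than the AngII libraries and enclosed them. Hnrnpa3 and Hnrnpa2b1 belong to the A/B group of hnRNPs, which silence exons. Hnrnpa3 was at 297, 346 and 278 FPKM in AngII, against 322, 314 and 254 FPKM in Control, and Hnrnpa2b1 at 262, 273 and 248 FPKM, against 273, 265 and 249 FPKM. Their groups overlapped, and the lowest values were in replicate 3 of either group.

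Hnrnpl and Hnrnpll, the repressors of variable Ptprc exons, had the largest positive log2 fold changes of the hnRNP genes, and neither passed. Hnrnpll (ENSMUSG00000024095, chromosome 17, 80029487 to 80062334) was at 33.3, 35.1 and 28.0 FPKM in AngII, against 25.5, 31.5 and 28.8 FPKM in Control. Hnrnpl (ENSMUSG00000015165, chromosome 7, 28808541 to 28822266) was at 229, 217 and 229 FPKM in AngII, against 220.3, 206 and 197 FPKM in Control. In each gene 2 AngII libraries exceeded all Control libraries and the other lay among them. The log2 fold changes were 0.16 (standard error 0.114) for Hnrnpll and 0.11 (standard error 0.064) for Hnrnpl, with a limma adjusted p of 0.9999 for both. The value of Hnrnpll was 0.09 without Control replicate 1, 0.10 without AngII replicate 2, 0.26 without AngII replicate 3 and with library weights 0.03. FPKM per gene does not show which Ptprc exons were used.

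Further hnRNP genes with the largest differences were small in size. Hnrnpr, a relative of Syncrip, was at 50.6, 58.9 and 51.3 FPKM in AngII, against 51.5, 51.5 and 46.6 FPKM in Control, a log2 fold change of 0.10. Hnrnph3, the least abundant hnRNP gene, was at 13.5, 10.5 and 12.3 FPKM, against 12.3, 11.1 and 10.5 FPKM, a log2 fold change of 0.09. Hnrnpc, which binds U tracts, was at 99.8, 103 and 106 FPKM, against 111, 118 and 99.7 FPKM, a log2 fold change of -0.09. All 3 overlapped between groups and had a limma adjusted p of 0.9999. Single libraries moved these values: Hnrnpr was at 0.03 without AngII replicate 2 and 0.05 without Control replicate 3. Hnrnph3 was at 0.02 without AngII replicate 1, 0.05 without Control replicate 3, 0.15 without Control replicate 1 and 0.18 without AngII replicate 2. Hnrnpc was at -0.03 without Control replicate 2 and -0.15 without Control replicate 3. The other hnRNP genes had log2 fold changes from -0.04 for Hnrnpm to 0.07 for Hnrnpdl.

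Hnrnph1, the G-run binding partner of Hnrnpf, had the largest spread of all members, with a coefficient of variation within groups of 26.2% (chromosome 11, 50376990 to 50386528). Its level was 107, 104 and 157 FPKM in AngII replicates 1 to 3, against 163, 103 and 103 FPKM in Control replicates 1 to 3. One library in each group, AngII replicate 3 and Control replicate 1, stood at 157 and 163 FPKM and the other 4 lay between 103 and 107 FPKM, with none in between. Its near copy Hnrnph2 on the X chromosome did not share this pattern, at 47.1, 55.8 and 46.5 FPKM in AngII, against 48.9, 47.8 and 45.4 FPKM in Control. How reads that fit both copies, or the processed copies of Hnrnpa1 and its relatives, were counted is not given in the sources used here, so the values of these genes are uncertain.

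The SF3 genes, whose products form the branch-point complexes, had log2 fold changes from -0.09 for Sf3b6 to 0.03 for Sf3b1. Sf3b2 was at 96.6, 99.4 and 97.7 FPKM in AngII, against 99.6, 102.5 and 91.6 FPKM in Control. Sf3b1, the large scaffold subunit that clasps the branch-point helix, was at 85.6, 84.7 and 82.9 FPKM, against 91.3, 85.8 and 71.8 FPKM. The AngII values of both lay inside the range of the Control values. Sf3b6, the small subunit at the branch-point adenosine, was at 62.4, 80.3 and 67.7 FPKM in AngII, against 71.0, 80.6 and 71.3 FPKM in Control. Sf3b4, which contacts RNA upstream of the branch point, was at 49.6, 49.0 and 57.8 FPKM, against 56.0, 52.6 and 55.3 FPKM. Sf3a3, of the SF3A complex, was at 34.9, 35.9 and 37.8 FPKM, against 38.5, 38.6 and 35.7 FPKM. Log2 fold changes of these last 3 were -0.09, -0.07 and -0.06, none past the threshold (limma adjusted p = 0.9999 for each), and their groups overlapped. With 1 library left out they ran from -0.19 (without AngII replicate 2) to -0.0076 (without AngII replicate 1) for Sf3b6, from -0.145 (without AngII replicate 3) to -0.0286 (without AngII replicate 2) for Sf3b4, and from -0.09 (without Control replicate 3) to -0.03 (without AngII replicate 1) for Sf3a3.

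Another SF3B subunit, Sf3b5, has no name in the library files and so falls outside the rule; by its identifier (ENSMUSG00000078348) it was at 63.5, 76.9 and 70.2 FPKM in AngII, against 78.1, 84.4 and 74.6 FPKM in Control. Its log2 fold change of -0.17 (standard error 0.089, limma adjusted p = 0.9999) did not pass, and AngII replicate 2 stood above Control replicate 3.

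By family, the median log2 fold change was 0.01 for SR genes, 0.03 for hnRNP genes and -0.04 for SF3 genes, against -0.004 for all genes tested. Values were positive for 6 of 11 SR genes, 15 of 20 hnRNP genes and 3 of 8 SF3 genes, none past the threshold, against 48.05% of all genes. Among genes averaging 10 FPKM or more, 2803 of 6703 were positive, with a median of -0.016. In the 10 further lists of splicing genes described below, 65 of 174 were positive. The signs of the members rest on single libraries and on the scaling. Without AngII replicate 2, 9 of 20 hnRNP genes were positive, without Control replicate 3 also 9, and with library weights 7. With equal summed FPKM 19 hnRNP, 9 SR and 6 SF3 genes were positive, against 72.5% of all genes, whose median was then 0.058.

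Some members varied widely between libraries of 1 group, as the coefficients of variation of 26.2% for Hnrnph1, 23.2% for Srsf5 and 17.9% for Hnrnpd show, against a median of 6.91% over the members. In AngII replicate 2, 7 of 39 members stood more than 15% above the median of the other 5 libraries and 3 more than 15% below, while in each other library 0 to 3 stood above. Over the 6703 genes at this level (10 FPKM or more on average), AngII replicate 2 had 13.6% above and 19.2% below. The members that were high in AngII replicate 2 were Srsf5 (54.8% above), Hnrnpdl (38.3%), Hnrnpd (37.8%), Hnrnpa1 (29.9%), Hnrnpll (21.9%), Hnrnph2 (18.5%) and Hnrnpa3 (16.5%). The members that were low there were Srsf7 (-19.9%), Srsf1 (-19.3%) and Srsf10 (-19.2%). The same library had the highest macrophage and monocyte marker sum, 3061 FPKM, against 1247 to 2180 FPKM in the other 5, and the part of these cells in the values was not tested. Control replicate 3 was low for most members, with a median departure of -7.79%, against -2.50% for those 6703 genes. It had the highest B cell marker sum, 1161 FPKM, of which Ighm made up 1042 FPKM. The next most abundant B cell markers, Cd79a and Cd79b, were at 36.5 and 33.9 FPKM there. In AngII replicate 3 they were at 38.0 and 33.3 FPKM, with a median departure of the members of -0.68%. The part of B cells in the values was not tested.

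**Figure D3:**
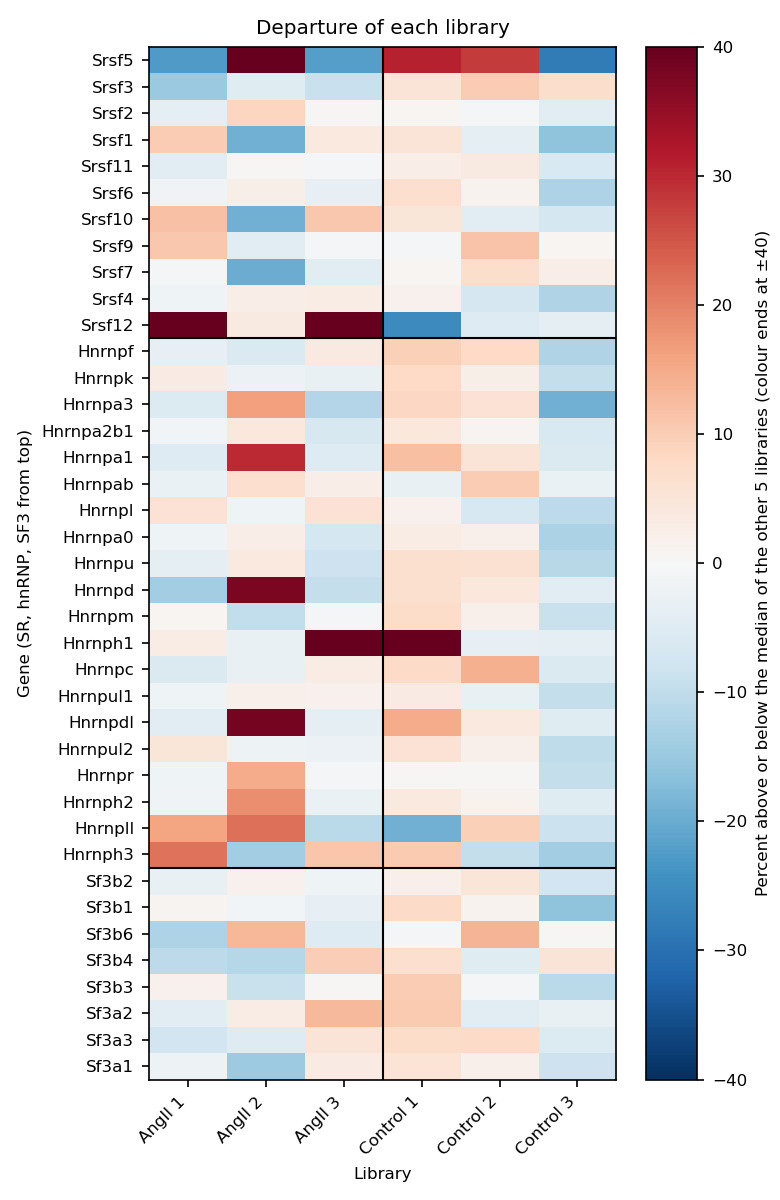
Departure of each library (columns, AngII left and Control right) from the median of the other 5 libraries for each gene (rows), in percent. AngII replicate 2 holds both the high values of Srsf5, Hnrnpd, Hnrnpdl and Hnrnpa1 and the low values of Srsf1, Srsf7 and Srsf10, and Hnrnph1 is high in AngII replicate 3 and Control replicate 1.

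Hnrnpd, also known as AUF1, a protein that binds AU-rich elements of short-lived mRNAs, lies on chromosome 5 (ENSMUSG00000000568, 99955935 to 99978938). It was at 111, 171 and 117 FPKM in AngII replicates 1 to 3, against 132, 129 and 124 FPKM in Control replicates 1 to 3. Its relative Hnrnpdl was at 68.4, 94.8 and 68.5 FPKM in AngII, against 78.7, 71.3 and 68.0 FPKM in Control. Hnrnpa1, the classical exon silencer, was at 239, 311 and 239.6 FPKM in AngII, against 269, 252 and 238 FPKM in Control. In all 3 genes AngII replicate 2 was the highest library and Control replicates 1 and 2 came next. Without AngII replicate 2, Hnrnpd had an unadjusted limma p under 0.05, as had Srsf3 and Srsf10, and the lowest adjusted p of a member was then 0.632. These were 3 of 39 members, and in the same fit 912 of all 11765 genes had such a p, so the members were near the background.

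The same 3 libraries held the highest values of Fos, the immediate early gene that marks recent activation or handling of cells. Fos was at 143, 358 and 164 FPKM in AngII replicates 1 to 3, against 493, 575 and 151 FPKM in Control replicates 1 to 3. Of the 39 members, 13 (33.3%) had their 3 highest values in these libraries, against 8.96% of all genes tested and 11.5% of those averaging 10 FPKM or more. They were 9 of 20 hnRNP genes, 3 of 11 SR genes (Srsf5, Srsf6 and Srsf11) and 1 of 8 SF3 genes (Sf3b2). This order was looked for after the values of Srsf5 and Fos had been seen, it crosses the groups, and no test was made of it. The summed FPKM of 18 immediate early and stress genes was 4015, 4973 and 4496 in AngII, against 5785, 6236 and 4171 in Control. Of these 18, Fosb, Jun, Junb, Jund, Dusp1, Nr4a1 and Zfp36 also had their 3 highest values in the libraries where Fos did. The rest did not, and Egr2, Btg2, Dnajb1 and Hspa8 were lowest in AngII replicate 2. Junb and Hspa8 were the largest terms of each sum. Hspa8 was at 704 FPKM in AngII replicate 2, against 1072 to 1281 FPKM in the other libraries. The part of these genes in the members' values was not tested.

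**Figure D4:**
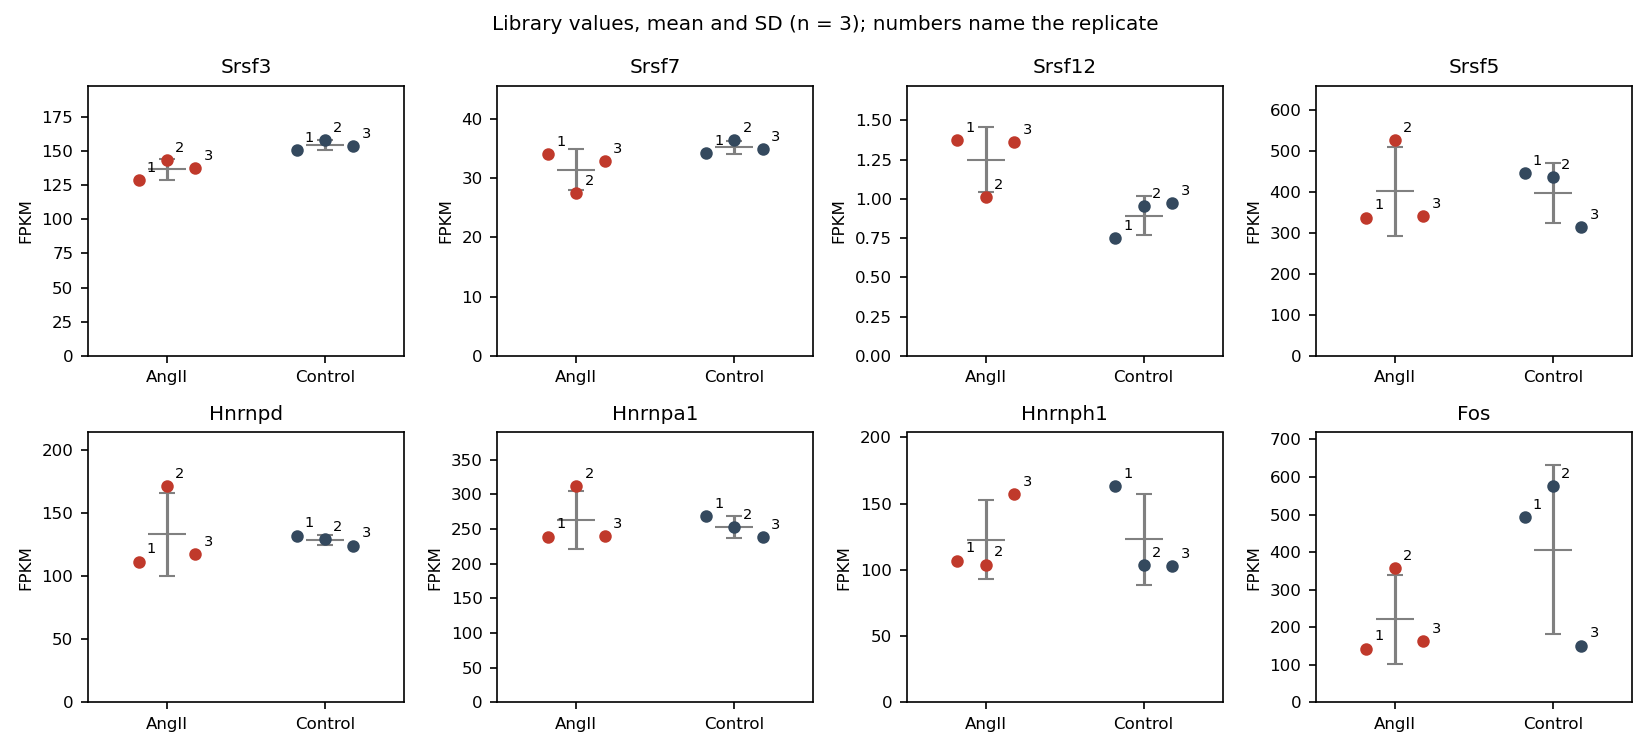
FPKM by library for 7 members and Fos (points, numbered by replicate; bar and whiskers, mean and SD of 3 libraries). Srsf3, Srsf7 and Srsf12 have separate groups, Srsf5, Hnrnpd and Hnrnpa1 are high in AngII replicate 2, and Hnrnph1 is at 157 FPKM in 1 AngII library and 163 FPKM in 1 Control library, apart from the rest.

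Srsf1 and Hnrnpa1 are known as a pair that pulls the choice between competing 5′ splice sites in opposite directions, so their ratio was taken within each library. The ratio of Srsf1 to Hnrnpa1 was 0.441, 0.258 and 0.415 in AngII replicates 1 to 3, against 0.375, 0.380 and 0.352 in Control replicates 1 to 3. AngII replicate 2 was the lowest of all libraries and the other 2 AngII libraries were the highest, so the groups overlapped. The ratio of summed SR to summed hnRNP FPKM varied less, at 0.302, 0.334 and 0.304 in AngII, against 0.3198, 0.329 and 0.312 in Control.

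The annotated transcript types differed between the families. In GENCODE M21, 9 of 11 SR genes and 10 of 20 hnRNP genes, but 1 of 8 SF3 genes (Sf3b1), have a transcript marked for nonsense-mediated decay, against 30.2% of the 10532 protein-coding genes tested. A transcript with a retained intron is listed for 29 of 39 members (74.4%), against 61.1% of protein-coding genes tested and 65.2% of those averaging 10 FPKM or more. Members have a median of 7 annotated transcripts, against 5 for protein-coding genes tested and 6 for those averaging 10 FPKM or more. The FPKM are sums per gene, so a shift between coding and non-coding transcripts of these genes would not appear in them.

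The other genes of the splicing pathway, taken from 10 lists, likewise held no gene past the threshold: 0 of 174 genes tested passed limma in either direction, with 5 at an unadjusted p under 0.05, against 1.76% of all genes. Their median log2 fold change was -0.02, against -0.004 for all genes, and 11 had groups that did not overlap, 5 higher and 6 lower in AngII, against 2.36% higher and 3.48% lower over all genes. The 10 lists had medians from -0.06 (3′ splice site recognition, 9 genes) to 0.03 (SR-related proteins, 22 genes). The kinases and phosphatases that act on SR proteins had a median of -0.02 over 13 genes, and the kinase Clk1 was at 103, 109 and 108 FPKM in AngII, against 133, 113 and 107 FPKM in Control.

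Single genes of these lists with an unadjusted p under 0.05 were Snrpg, Snrpb, Lsm3, Cwc22 and Sap18. Snrpb, a protein of the Sm ring that encircles the spliceosomal RNAs, was at 130.3, 140 and 157 FPKM in AngII, against 159, 167 and 167 FPKM in Control. Its groups were separate, with a log2 fold change of -0.21 (standard error 0.081, limma adjusted p = 0.9999). Snrpg of the same ring was at 199, 255 and 234 FPKM in AngII, against 297, 313 and 252 FPKM in Control, with 1 AngII library above the lowest Control library. Lsm3 of the U6 particle had a log2 fold change of -0.21, Sap18 of the exon junction complex -0.12 and Cwc22, which loads that complex onto the spliceosome, 0.17, each with separate groups and none past the threshold.

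**Figure D5:**
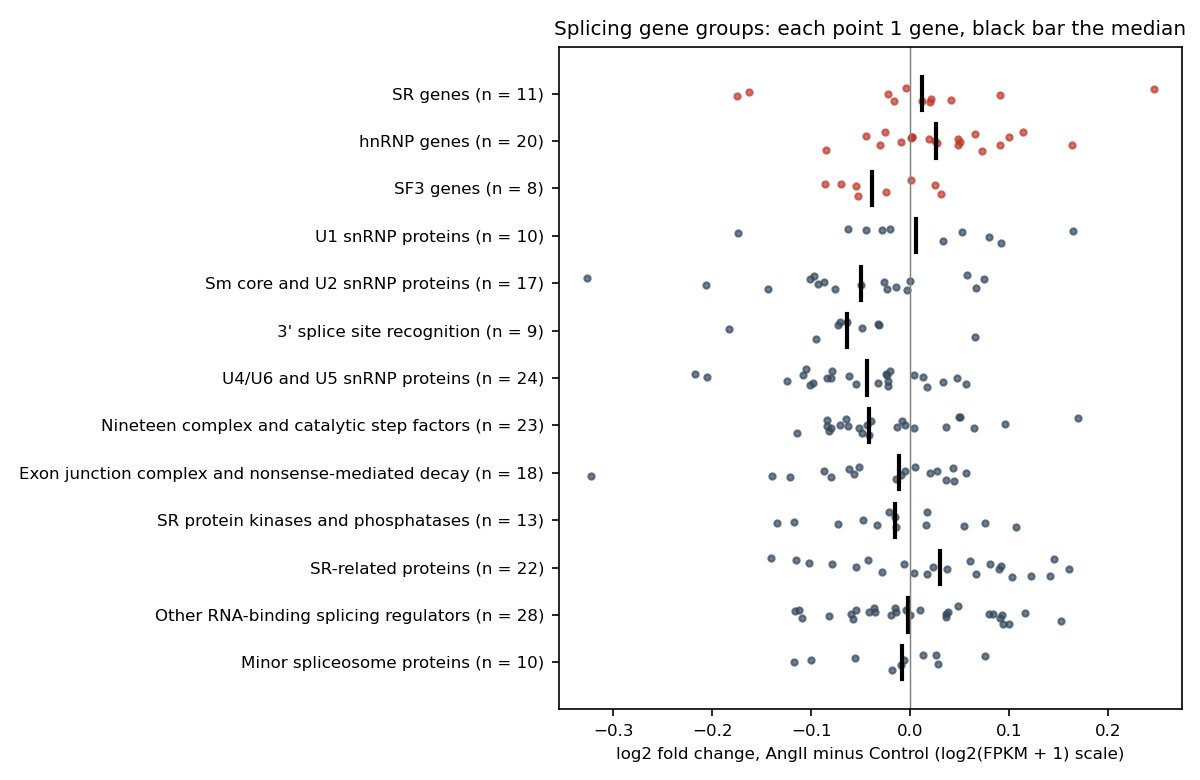
Log2 fold change, AngII minus Control, of each gene tested in the SR, hnRNP and SF3 families (top) and in 10 further lists of splicing genes, with the median of each list as a black bar. The medians lie between -0.06 and 0.03 and no point passed the limma threshold.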

How the data were processed

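Per the file headers, the authors deposited 1 table per library with FPKM for each Ensembl gene, and a table of their own comparison with p-values and q-values, in which the 2 conditions are named only by number, so no direction was taken from it. Per the submitters' processing notes, the tools were Trimmomatic 0.32, TopHat2 2.1.1 and Cuffdiff on genome build GRCm38.p3. The annotation, the settings, the strand setting and the read depth are stated nowhere in the sources used.

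Coordinates and transcript types are from GENCODE M21. Symbols came by identifier from a reference name table for 37605 of 39171 identifiers, and members were matched on the name in the files. Values were tested as log2(FPKM + 1) in genes averaging 1 FPKM or more, using limma 3.58.1 in R 4.3.3 (eBayes with trend, two-sided, Benjamini-Hochberg adjustment over all 11842 genes, threshold 0.05). No count test was run, since FPKM are not counts. The code was tested on simulated data. Promoters are from RefSeq, of which 36 of 39 members had an entry. The labels do not tie each library to 1 mouse. The p-values therefore set the group difference against the spread between these libraries, which may not be the spread between mice.

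Genes were named by a rule: the 4 most abundant members per family, the 6 largest log2 fold changes in each direction, members whose groups did not overlap, and from each list at most the 2 genes with the lowest p. The choice of Fos, Srsf10, Hnrnpa1, Hnrnpd, Hnrnpdl, Hnrnph1, Hnrnph2 and Sf3b5 followed a look at their values. The members and lists were chosen with earlier results of these data known. Alternatives covered the pseudocount, the filter, scaling, the trend, library weights, a replicate block and each library left out. Tables and plots were made in Python 3.11.15 with numpy 2.4.6, pandas 2.3.3 and matplotlib 3.10.9.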

Additional observations from a re-analysis of the deposited data

How the results depend on the processing

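No member passed the threshold under any of the 16 alternatives run, and the lowest adjusted p of a member was 0.275, with library weights. Over all genes 4 passed, against 7 with no filter on low values, and from 4 to 9 with 1 library left out (9 without AngII replicate 3, 8 without Control replicate 1 and 7 without Control replicate 3). The cause was not tested. The number of all genes with an unadjusted p under 0.05 was 208, against 2046 with library weights, 912 without AngII replicate 2, 609 with no filter and 413 without Control replicate 3. Of 12 named log2 fold changes under these alternatives, 189 of 191 values kept their sign and stayed short of the threshold. The exceptions were Sf3b4 with library weights (0.0039) and Sf3a3 with equal summed FPKM (0.0119), which changed sign. Srsf12 gave no value with a filter of 5 FPKM. The 12 were named for large differences or separate groups in these same data, which favoured a kept sign. The filter, the trend and the replicate block left their fitted values unchanged. The family medians moved by less than the spread between libraries.

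With the replicate number as a block, 3 genes and 0 members passed. No pairing by number was seen: deviations of same-numbered libraries correlated at -0.08, -0.02 and -0.04, and those of the other pairs at -0.03 to 0.06. With 3 libraries per group these values cannot show that the libraries were unpaired. Precision is limited by 3 libraries per group and by an unknown read depth.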

Other observations

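Ptprc, whose variable exons Hnrnpl and Hnrnpll repress, was at 355, 379 and 361 FPKM in AngII replicates 1 to 3, against 383, 366 and 310.1 FPKM in Control replicates 1 to 3. The groups overlapped, with a log2 fold change of 0.05 (standard error 0.092). The SR-like activators Tra2a and Tra2b, which bind GAA-rich enhancers, also overlapped between groups. Tra2b was at 98.0, 101 and 99.2 FPKM in AngII, against 116.5, 113 and 94.9 FPKM in Control. Tra2a was at 36.7, 30.3 and 35.8 FPKM in AngII, against 36.4, 38.7 and 35.2 FPKM in Control, with its lowest value in AngII replicate 2, the library in which Srsf1, Srsf7 and Srsf10 were also lowest. These genes were chosen after their values were seen.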
